A study of Mus musculus with 69 samples.

Results

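Nephritic and young kidneys of NZB/W mice were compared at ZT0, the hour of lights on, in 14 of the 69 libraries of the series. Members were the original libraries whose time label is ZT0 and whose diagnosis is nephritis (n = 7) or Young (n = 7), with repeat libraries of mice sequenced again left out. NZB/W mice are an F1 hybrid strain that develops a spontaneous disease like human lupus, with antibodies against nuclear antigens and immune-complex nephritis. Young mice were 12 weeks old and had no treatment. Nephritic mice were 30 to 45 weeks old and were killed 2 to 3 weeks after proteinuria passed 300 mg/dl, while blood urea nitrogen was below 25 mg/dl. They had no treatment either. Every mouse in both groups was of this strain, and no libraries of old mice without nephritis were used here, so age and nephritis cannot be told apart in any difference given. The RNA came from whole kidneys flushed with PBS. The library names carry 4 prefixes: young mice 1 to 4 are ZT, young mice 5 to 7 are CR, nephritic mice 1 to 3 are CRS and nephritic mice 4 to 7 are RX. The CR and CRS libraries (3 against 3) formed one set and the ZT and RX libraries (4 against 4) the other, and the set was a covariate in the comparison. The labels do not say what the prefixes mean.

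In lupus nephritis, immune complexes lodge in the glomeruli, where they engage complement and Fc receptors, and lymphocytes and macrophages collect in the interstitium. Most kidney RNA comes from tubule cells, above all from the proximal tubule, which reabsorbs filtered salts, sugars, amino acids and proteins and burns fatty acids to do so. Tubule cells that are damaged lower these transporters and switch on genes such as Lcn2 and Havcr1. The kidney also holds a circadian clock. In it, the activators Arntl (Bmal1) with Clock or Npas2 drive the Per and Cry repressors and the Nr1d1 and Dbp outputs, and Arntl peaks near lights on while Dbp peaks near lights off.

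Read counts per gene totalled from 27338806 to 36567793 per library (medians 29915407 in young and 33047149 in nephritic mice). Levels are given as CPM, edgeR's read counts relative to library size after TMM scaling, as the lowest, highest and median mouse of each group. The kidney markers Umod, Lrp2, Slc34a1, Slc12a3, Aqp2 and Nphs1 were present in every library, from 5.70 CPM upwards. Adrenal genes marked 2 libraries: the 12 listed genes summed to 449 CPM in young mouse 1 and 1575 CPM in nephritic mouse 4, against 7.12 to 12.7 CPM in the other 12 mice. Alb, the main plasma protein of liver, stood at 3121 CPM in nephritic mouse 4, 1241 CPM in nephritic mouse 6 and 560.5 CPM in nephritic mouse 7, and at 24.4 to 191 CPM in young mice. Their part in the differences was not tested, and the counts without the 2 adrenal-marked mice are given below.

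Of 15889 genes tested, 2527 (15.9%) were higher and 1592 (10%) were lower in nephritic kidneys at an adjusted p of at most 0.05 (edgeR's quasi-likelihood test with Benjamini-Hochberg adjustment over all genes tested). The median gene did not shift (log2 change 0.0044). Higher genes differed by more than lower genes did: the median log2 change was 1.12 among the higher and -0.43 among the lower genes. At least 2-fold differences were met by 1383 higher and 104 lower genes, and at least 4-fold differences by 554 higher and 6 lower genes. All 7 nephritic mice lay above all 7 young mice in 778 genes (4.90%) and below them in 304 genes (1.91%). Nephritic mice also varied more among themselves. The SD of log2 CPM was larger in nephritic than in young mice for 74.2% of genes, with medians of 0.21 and 0.14. On the first principal component, which held 61.1% of the variance, nephritic mice 1, 3, 4 and 6 scored from 25.8 to 63.1, nephritic mouse 2 scored 0.76, nephritic mice 5 and 7 scored -13.7 and -13.9, and young mice lay between -30.7 and -21.2.

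**Figure D1:**
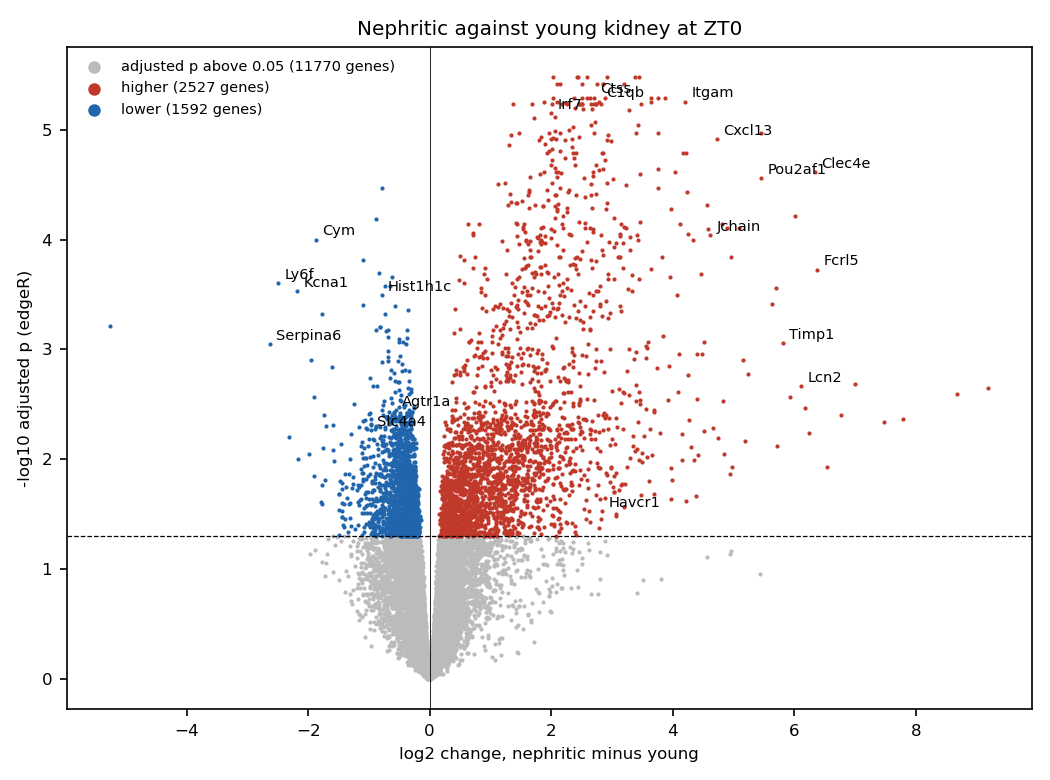
Log2 change (nephritic minus young, x axis) against -log10 of the adjusted p (y axis) for the 15889 genes tested at ZT0, with the threshold of 0.05 dashed and some of the genes named in the text labelled. The 2527 higher genes reach further from 0 than the 1592 lower genes do.

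The counts leaned on single mice. With 1 mouse left out, the higher genes numbered 1791 (without nephritic mouse 4) to 3211 (without nephritic mouse 7) and the lower genes 902 (without young mouse 6) to 2278 (without nephritic mouse 5). The lower count moved by over 1.5 times without young mouse 4 (937), 5 (962), 6 (902) or 7 (985) or nephritic mouse 1 (1004), 3 (1031), 4 (935) or 6 (1005). Without both adrenal-marked mice, 1386 genes were higher and 637 lower. Of the 2527 higher and 1592 lower genes, 1660 and 756 passed whichever mouse was left out.

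Many of the genes with the highest changes among those that did not overlap between the groups are known from B cells, myeloid cells and injured tubule. In bulk RNA, more or fewer cells of a type cannot be told apart from more or less RNA per cell. Fcrl5, an Fc receptor-like protein of B cells, had no read in 5 of 7 young libraries and at most 0.0868 CPM in the others, against 0.477 to 5.48 CPM (median 1.45) in nephritic mice (log2 change 6.37 ± 0.86 SE, adjusted p = 0.000187). With so few young reads its fitted fold, like that of Clec4e, depends on the prior count. Clec4e, a macrophage lectin that senses damaged cells, ran from 0 to 0.0374 CPM (median 0.0290) in young and 0.767 to 4.14 CPM (median 1.29) in nephritic mice (log2 change 6.35 ± 0.66 SE, adjusted p = 2.41e-05). Pou2af1, the coactivator of B cell transcription, ran from 0.0334 to 0.589 CPM (median 0.0868) in young and 3.49 to 12.99 CPM (median 5.31) in nephritic mice (log2 change 5.46 ± 0.58 SE, adjusted p = 2.77e-05). Jchain, which joins the chains of IgM and IgA in plasma cells, stood at 1.89 to 15.98 CPM (median 2.97) in young and 50.1 to 237 CPM (median 91.7) in nephritic mice. The chemokine Cxcl13, which draws B cells into follicles, ran from 0.174 to 0.485 CPM (median 0.337) in young and 3.96 to 18.99 CPM (median 7.12) in nephritic mice (log2 change 4.73 ± 0.45 SE, adjusted p = 1.22e-05). Glycam1, a mucin-like ligand of L-selectin on the venules through which lymphocytes enter, was highest in nephritic mouse 2 at 15.5 CPM and nephritic mouse 7 at 8.62 CPM, and at most 0.278 CPM in young mice (log2 change 5.23 ± 0.92 SE, adjusted p = 0.00166). Ccl20, the ligand of CCR6, rose by 5.70, Il1rn, the natural IL-1 receptor antagonist, by 5.09 and Adgra1, an adhesion G protein-coupled receptor, by 4.83 on the log2 scale.

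Lcn2 (lipocalin-2, chr2:32384637-32387739, GRCm38), an iron-siderophore binding protein that injured tubule cells release, shows how far the nephritic mice spread. It was 1.56 to 4.45 CPM (median 3.33) in young mice, and 121, 9.07, 718, 397, 5.43, 310.2 and 7.36 CPM in nephritic mice 1 to 7 (log2 change 6.11 ± 1.12 SE, adjusted p = 0.00217). Nephritic mice 2, 5 and 7 sat just above the young range and the other nephritic mice far above it. Timp1, an inhibitor of matrix metalloproteinases, had its lowest nephritic values in the same 3 mice, at 1.81, 0.932 and 0.961 CPM, with 0.932 to 37.4 CPM (median 20.6) over all nephritic and 0.165 to 0.382 CPM (median 0.262) over young mice (log2 change 5.82 ± 0.94 SE, adjusted p = 0.000873).

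The 12 lowest changes were likewise taken among genes whose groups did not overlap and with at least 1 CPM in young mice. Serpina6, the corticosteroid-binding globulin, ran from 22.95 to 48 CPM (median 37.5) in young and 1.18 to 12.1 CPM (median 6.18) in nephritic mice (log2 change -2.63 ± 0.43 SE, adjusted p = 0.000888). Ly6f, a member of the Ly6 family of membrane-anchored proteins, ran from 10 to 43.5 CPM (median 18.5) in young and 1.52 to 5.41 CPM (median 3.51) in nephritic mice (log2 change -2.49 ± 0.35 SE, adjusted p = 0.000248). Kcna1, a voltage-gated potassium channel, had a log2 change of -2.18, Sec14l3, a lipid-transfer protein, one of -2.17, Prok1, a secreted prokineticin, one of -1.95 and Cym, the aspartic protease chymosin, one of -1.87. Acmsd, which diverts tryptophan breakdown away from NAD synthesis, ran from 194 to 302 CPM (median 221) in young and 23.8 to 147 CPM (median 115) in nephritic mice (log2 change -1.44 ± 0.38 SE, adjusted p = 0.0163). Its lowest nephritic values, 23.8, 33.9 and 37.1 CPM, came from nephritic mice 3, 6 and 4. The others of the 12 were Mgat5b (-1.79), an N-glycan branching enzyme, Maats1 (-1.78), Apol10b (-1.59), an apolipoprotein L, Snx31 (-1.44), a sorting nexin and Mylk3 (-1.39), a myosin light chain kinase. The Snx31 call was lost without nephritic mouse 6.

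**Figure D2:**
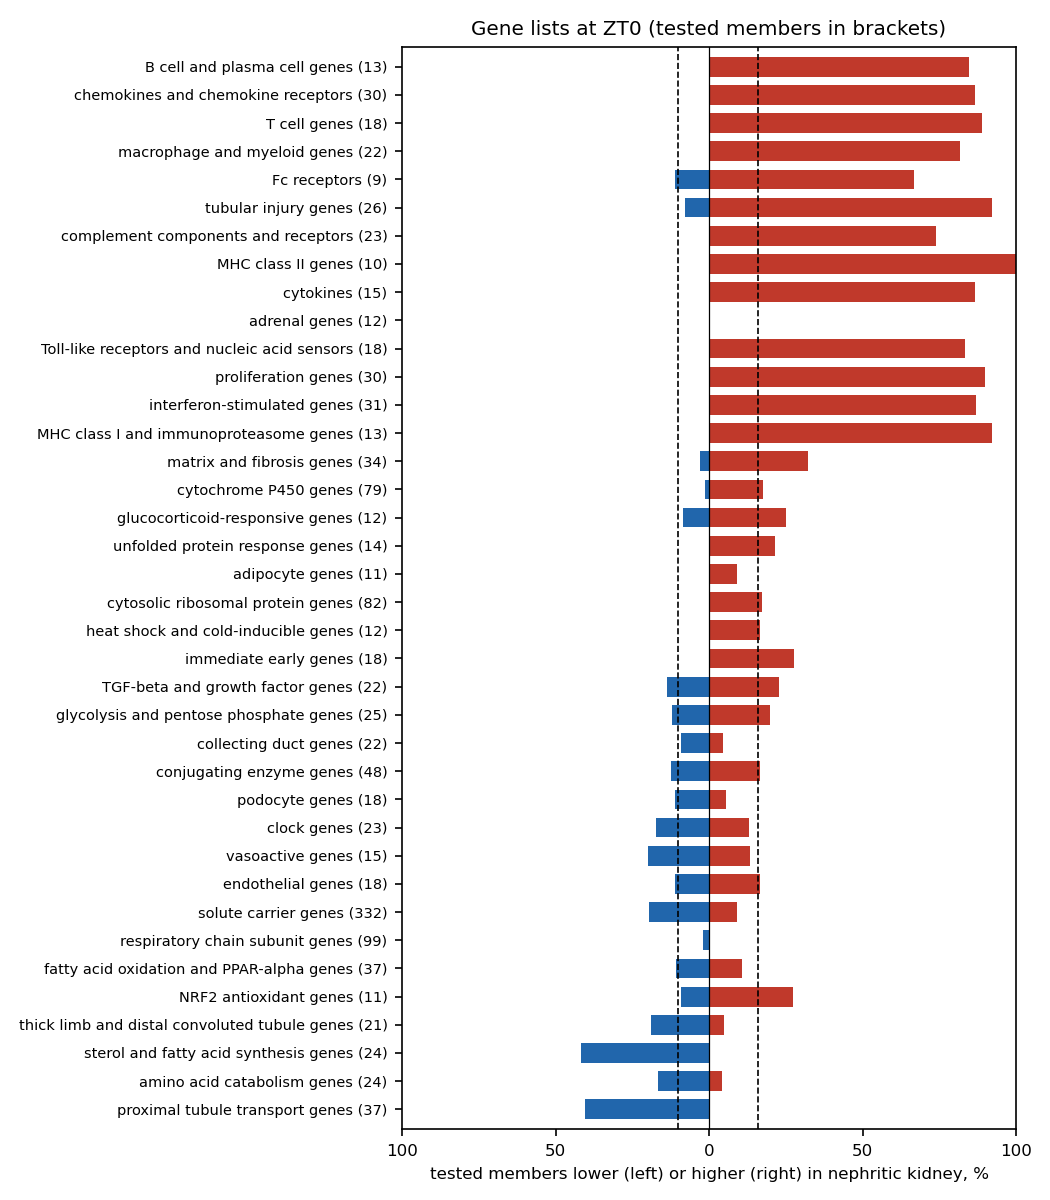
Share of tested members of each gene list with at least 9 tested (number in brackets) that were lower (left) or higher (right) in nephritic kidney at ZT0, in percent, with the shares over all genes tested, 10% and 15.9%, dashed. Immune, injury and proliferation lists lean to the right and the proximal tubule and sterol lists to the left.

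Interferon-stimulated genes moved upward almost as a block. Of 31 listed and tested, 27 were higher (87.1%, against 15.9% of all genes tested) and 0 lower, with a median log2 change of 1.44, and in 24 all nephritic mice lay above all young mice (4.90% of all genes). Irf7, the factor that amplifies type I interferon, ran from 9.96 to 18.3 CPM (median 13.9) in young and 37.1 to 80.3 CPM (median 54.7) in nephritic mice (log2 change 2.00 ± 0.18 SE, adjusted p = 7.06e-06). Isg15, a ubiquitin-like modifier, ran from 2.14 to 4.45 CPM (median 3.13) in young and 7.68 to 18.9 CPM (median 8.80) in nephritic mice (log2 change 1.72 ± 0.24 SE, adjusted p = 0.000217), and Ifit1, which binds viral RNA, from 3.71 to 5.39 CPM (median 4.54) in young and 8.08 to 24.3 CPM (median 13.1) in nephritic mice (log2 change 1.59 ± 0.23 SE, adjusted p = 0.000294). Nephritic mouse 1 was the highest mouse for all 3 of these genes. Oasl1 (2.06), Oas2 (2.12) and Mx1 (2.20) were also higher. Between 26 and 28 members passed with any 1 mouse left out, 22 in the CR and CRS libraries alone and 21 in the ZT and RX libraries alone.

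Because these members moved together, their promoters were read for the core of the interferon-stimulated response element, GAAANNGAA on either strand, in the 300 bases from 250 before to 50 after the RefSeq start (GRCm38.p6). Of 31 members, 23 had such a window and 17 of these held the core (73.9%), against 1087 of the 12162 tested genes with a window (8.94%). A gene with more than 1 window was counted if any of them held the core. A match is a description of the letters and shows no binding. The windows of 3 members are printed with the matched bases in capitals: Bst2 (tetherin, which holds budding virus at the cell surface, chr8:71537423-71537722, minus strand), Igtp (an interferon-induced GTPase, chr11:58199306-58199605, plus strand) and Oas1a (which makes 2-5 oligoadenylates, chr5:120907476-120907775, minus strand).
Bst2: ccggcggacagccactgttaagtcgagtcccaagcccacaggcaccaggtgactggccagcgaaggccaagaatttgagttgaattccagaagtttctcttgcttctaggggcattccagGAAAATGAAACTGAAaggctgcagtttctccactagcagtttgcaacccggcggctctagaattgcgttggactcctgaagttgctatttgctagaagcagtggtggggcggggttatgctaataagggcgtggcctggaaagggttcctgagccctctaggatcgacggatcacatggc
Igtp: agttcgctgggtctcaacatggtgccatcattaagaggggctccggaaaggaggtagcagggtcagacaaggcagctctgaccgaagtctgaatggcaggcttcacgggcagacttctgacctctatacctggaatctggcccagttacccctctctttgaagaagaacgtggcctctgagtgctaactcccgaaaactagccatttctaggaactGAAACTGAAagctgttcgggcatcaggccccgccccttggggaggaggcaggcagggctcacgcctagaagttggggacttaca
Oas1a: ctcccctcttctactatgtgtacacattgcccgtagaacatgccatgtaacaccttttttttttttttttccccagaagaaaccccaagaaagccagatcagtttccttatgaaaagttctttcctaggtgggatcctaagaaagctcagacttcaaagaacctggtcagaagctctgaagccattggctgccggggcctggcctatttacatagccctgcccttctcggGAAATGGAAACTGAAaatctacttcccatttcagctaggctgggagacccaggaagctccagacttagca
The Bst2 and Oas1a windows each held 2 overlapping copies of the core, and the Igtp window held 1. Bst2 ran from 18.8 to 33.1 CPM (median 26.3) in young and 45.7 to 107 CPM (median 65.2) in nephritic mice (log2 change 1.44 ± 0.18 SE, adjusted p = 9.27e-05). Igtp ran from 11.2 to 15.7 CPM (median 13.7) in young and 18.8 to 32.7 CPM (median 24.9) in nephritic mice (log2 change 0.89 ± 0.12 SE, adjusted p = 0.000205). Oas1a ran from 1.19 to 3.05 CPM (median 1.91) in young and 4.27 to 12.9 CPM (median 10.1) in nephritic mice (log2 change 2.10 ± 0.29 SE, adjusted p = 0.000207). No nephritic mouse fell within the young range for any of the 3. These 3 genes were chosen after the values were seen, as the higher members with the smallest p that held the core. Their higher levels were thus fixed by the choice. Of the 19 higher members with a window, 13 held the core, and Irf7 and Oasl1 did not. Ifih1, Gbp3, Rsad2 and Ifi44, which did not pass, held it.

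Complement genes were higher as well: 17 of 23 (73.9%, against 15.9% of all genes) and 0 lower, with a median log2 change of 2.02. The 3 chains of C1q, which binds immune complexes and starts the classical pathway, moved alike. C1qa ran from 18.8 to 33.6 CPM (median 23.1) in young and 60.8 to 285 CPM (median 168) in nephritic mice (log2 change 2.69 ± 0.28 SE, adjusted p = 2.65e-05), C1qb had a log2 change of 2.79 and C1qc one of 2.82, and all nephritic mice lay above all young mice for each. C3, on which the pathways converge, ran from 49.7 to 114 CPM (median 74.6) in young and 88.2 to 1588 CPM (median 345) in nephritic mice (log2 change 2.96 ± 0.67 SE, adjusted p = 0.00741), and its groups overlapped, with nephritic mice 2, 5 and 7 at 91.5, 88.2 and 96.7 CPM. C4b, cleaved by the C1 complex, rose by 2.83 on the log2 scale. Itgam and Itgb2, the chains of complement receptor 3 on myeloid cells, rose by 4.21 and 2.10. Cd55, which speeds the decay of convertases on host cells, did not pass (log2 change -0.55 ± 0.20 SE, adjusted p = 0.0543). Without the 2 adrenal-marked mice, 13 members were higher.

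Of 9 Fc receptor genes, 6 were higher (66.7%, against 15.9% of all genes) and 1 lower (11.1%, against 10%). The activating receptors Fcgr4 (log2 change 3.64 ± 0.30 SE, adjusted p = 5.53e-06), Fcgr1 (2.88) and Fcgr3 (2.72) rose, as did their signalling chain Fcer1g (2.38). Fcgr4 ran from 0.606 to 1.74 CPM (median 0.973) in young and 7.91 to 22.5 CPM (median 12.6) in nephritic mice, and each of the 4 separated the groups. Pigr, which carries IgA across epithelium, had a log2 change of 0.60 and Fcrls one of 2.13, and both were named after their values were seen. The inhibitory receptor Fcgr2b was the lower one, at 30.4 to 44.1 CPM (median 32.3) in young and 22.95 to 35.02 CPM (median 25.9) in nephritic mice (log2 change -0.29 ± 0.10 SE, adjusted p = 0.0392). The groups overlapped for Fcgr2b. The Fcgr2b call was lost without any 1 mouse other than young mice 1, 2 and 3 and nephritic mice 5, 6 and 7. The Pigr call was lost without any 1 mouse other than young mice 3 and 4 and nephritic mice 3, 4, 5 and 6.

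Lymphocyte genes were low in young kidneys and higher in nephritic ones. Among B cell and plasma cell genes, 11 of 13 tested were higher (84.6%, against 15.9% of all genes), with a median log2 change of 4.24. Their summed level ran from 7.24 to 28.8 CPM in young and from 94.0 to 305 CPM in nephritic mice. Cd79a, the signalling chain of the B cell receptor, ran from 0.123 to 1.52 CPM (median 0.299) in young and 4.06 to 20.2 CPM (median 8.59) in nephritic mice (log2 change 4.33 ± 0.54 SE, adjusted p = 0.000101), and Fcer2a (CD23) rose by 4.24. Among T cell genes, 16 of 18 tested were higher (88.9%, median log2 change 2.35), with sums of 9.76 to 17.2 CPM in young and 26.9 to 84.4 CPM in nephritic mice. Cd3e, a chain of the T cell receptor complex, ran from 0.501 to 1.21 CPM (median 0.724) in young and 1.63 to 5.18 CPM (median 2.27) in nephritic mice (log2 change 1.77 ± 0.29 SE, adjusted p = 0.00107), Cd4 had a log2 change of 2.18 and Cd8b1 one of 3.04. Cd8a, the partner of Cd8b1, did not pass (log2 change 0.31 ± 0.18 SE, adjusted p = 0.211). Antibody and T cell receptor constant genes were not used here. Nephritic mouse 2, among the 3 lowest nephritic mice for Lcn2, was the highest mouse for Cd79a (20.2 CPM).

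Macrophage and myeloid genes followed, with 18 of 22 higher (81.8%, against 15.9% of all genes) and a median log2 change of 2.25. Ctss, a cathepsin of antigen-presenting cells, ran from 8.73 to 17.2 CPM (median 12.4) in young and 44.6 to 116 CPM (median 88.2) in nephritic mice (log2 change 2.70 ± 0.21 SE, adjusted p = 5.08e-06), Itgax (CD11c) had a log2 change of 2.94 and Tyrobp, an adaptor of myeloid receptors, one of 2.33. Cd68, a lysosomal protein of macrophages, ran from 2.18 to 4.12 CPM (median 3.21) in young and 7.33 to 24.9 CPM (median 16.9) in nephritic mice, and Adgre1 (F4/80) from 2.18 to 12.01 CPM (median 4.16) in young and 12.02 to 34.8 CPM (median 22.6) in nephritic mice. The groups did not overlap for Cd68, and for Adgre1 the highest young and the lowest nephritic mouse were level. Csf1r, the receptor that macrophages need for survival, did not pass (log2 change 0.19 ± 0.15 SE, adjusted p = 0.336). Few neutrophil genes could be read: 8 of 13 had under 100 counts over the libraries, and of 5 tested only Csf3r (2.27) was higher, while S100a8 and S100a9 stayed at or below 0.824 CPM in every nephritic mouse.

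Antigen presentation genes were higher in both classes. All 10 class II genes were higher, as were 12 of 13 class I and immunoproteasome genes (92.3%), against 15.9% of all genes. In either list 0 were lower. H2-Ab1, a class II chain, ran from 18.5 to 31.95 CPM (median 23.8) in young and 33.9 to 193 CPM (median 98.9) in nephritic mice (log2 change 2.08 ± 0.33 SE, adjusted p = 0.000778), and Ciita, the class II transactivator, had a log2 change of 1.68. H2-K1, a class I chain, ran from 45.4 to 79.1 CPM (median 62.98) in young and 108 to 369 CPM (median 313) in nephritic mice (log2 change 2.05 ± 0.28 SE, adjusted p = 0.000217), Nlrc5, the class I transactivator, rose by 1.95 and Psmb8, an immunoproteasome subunit, by 1.89. Nephritic mouse 1 was the highest mouse for H2-Ab1 and H2-K1 and nephritic mouse 5 the lowest nephritic mouse. In the ZT and RX libraries alone, 3 class II and 4 class I genes passed.

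Of 30 chemokines and chemokine receptors tested, 26 were higher (86.7%, against 15.9% of all genes). Of 15 cytokines 13 were higher (86.7%), with 0 lower in each list. Ccl7, a monocyte attractant, ran from 0.123 to 0.417 CPM (median 0.262) in young and 1.99 to 10.1 CPM (median 3.73) in nephritic mice (log2 change 4.16 ± 0.41 SE, adjusted p = 1.63e-05), and Ccl2, the main ligand of CCR2, from 0.741 to 1.97 CPM (median 1.08) in young and 2.97 to 20.9 CPM (median 8.46) in nephritic mice (log2 change 2.93 ± 0.45 SE, adjusted p = 0.000518). Ccl5, which draws T cells, had a log2 change of 3.03 and Ccr7, which guides T cells and dendritic cells to lymphoid tissue, one of 2.55. Tnf ran from 0.123 to 0.556 CPM (median 0.303) in young and 0.871 to 2.67 CPM (median 2.09) in nephritic mice (log2 change 2.48 ± 0.36 SE, adjusted p = 0.000361) and Il1b from 0.711 to 3.17 CPM (median 2.05) in young and 3.65 to 17.7 CPM (median 9.96) in nephritic mice (log2 change 2.19 ± 0.41 SE, adjusted p = 0.0025). Ltb, which organises lymphoid tissue, rose by 3.03 and Tnfsf13b (BAFF), the B cell survival factor, by 1.65. Toll-like receptors and nucleic acid sensors were higher in 15 of 18 (83.3%). Among them were Tlr7 (1.64) and Tlr9 (2.06), the receptors for single-stranded RNA and for DNA, their chaperone Unc93b1 (1.52) and Tlr13 (2.46). Tlr9 ran from 0.412 to 0.902 CPM (median 0.590) in young and 1.61 to 3.98 CPM (median 2.61) in nephritic mice, without overlap.

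**Figure D3:**
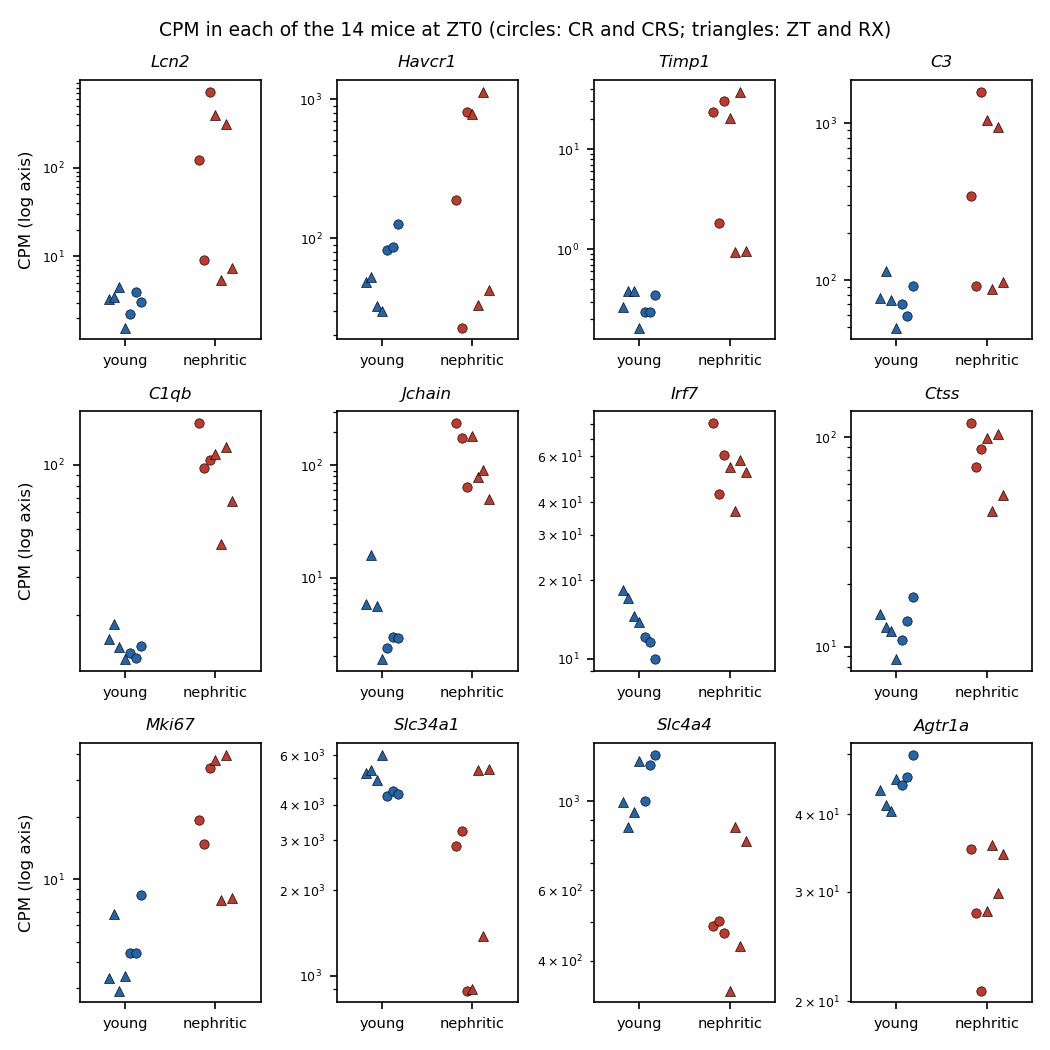
CPM (log axis) of 12 genes in each of 7 young and 7 nephritic mice at ZT0, where points are mice in the order of their numbers, circles CR and CRS and triangles ZT and RX libraries. Irf7, C1qb, Jchain and Ctss separate the groups in every mouse, whereas Havcr1, C3, Mki67 and Slc34a1 overlap, with nephritic mice 5 and 7 inside the young range.

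Tubular injury genes rose in 24 of 26 members (92.3%, against 15.9% of all genes), with a median log2 change of 2.07. The other 2 were lower (7.69%, against 10% of all genes). Vcam1, an adhesion molecule of inflamed tubule, ran from 7.16 to 16.3 CPM (median 10.8) in young and 18.4 to 279.9 CPM (median 74.5) in nephritic mice (log2 change 3.39 ± 0.64 SE, adjusted p = 0.00293) without overlap, and Cd44, a hyaluronan receptor, rose by 3.45. Havcr1 (KIM-1), a phagocytic receptor of damaged proximal tubule, ran from 30.1 to 125 CPM (median 52.5) in young and 22.7 to 1132 CPM (median 188) in nephritic mice (log2 change 2.84 ± 0.87 SE, adjusted p = 0.0295). Its nephritic mice 2, 5 and 7 stood at 22.7, 33.1 and 42.6 CPM, inside or below the young range. Cdkn1a (p21), a brake on the cell cycle, ran from 16.8 to 20.7 CPM (median 18.1) in young and 24.7 to 88.05 CPM (median 48.7) in nephritic mice (log2 change 1.62 ± 0.24 SE, adjusted p = 0.000393). The members that were lower were Prom1 (-0.49), a surface protein of immature epithelium, and Itgb6 (-0.33), an integrin chain of epithelium that activates TGF-beta, both named after their values were seen. With any 1 mouse left out, 20 to 24 members were higher, without both adrenal-marked mice 15, and in the ZT and RX libraries alone 5. The Havcr1 call was lost without any 1 mouse other than young mouse 7 and nephritic mice 1, 2, 5 and 7.

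Proliferation genes were higher in 27 of 30 (90%, against 15.9% of all genes). In 3 of the 30 (10%, against 4.90% of all genes) all nephritic mice lay above all young mice. Mki67, a nuclear protein of cycling cells, ran from 2.92 to 8.40 CPM (median 4.41) in young and 7.94 to 39.7 CPM (median 19.4) in nephritic mice (log2 change 2.27 ± 0.41 SE, adjusted p = 0.00198), Top2a, the mitotic topoisomerase, had a log2 change of 2.36 and Birc5 (survivin) one of 2.28. Tk1, a thymidine kinase of S phase, did separate them at a smaller size, with 8.13 to 12.5 CPM (median 10.1) in young and 13.4 to 19.3 CPM (median 14.1) in nephritic mice (log2 change 0.56 ± 0.11 SE, adjusted p = 0.00307). Without the adrenal-marked mice 16 members passed, and in the ZT and RX libraries alone 1.

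Matrix genes moved less uniformly: 11 of 34 were higher (32.4%, against 15.9% of all genes) and 1 lower (2.94%, against 10%). Col1a1, a chain of fibrillar collagen I, ran from 8.27 to 32.99 CPM (median 22.5) in young and 16.9 to 243 CPM (median 60.1) in nephritic mice (log2 change 1.86 ± 0.57 SE, adjusted p = 0.0287), whereas Col3a1 (log2 change 1.56 ± 0.56 SE, adjusted p = 0.0542) and Fn1 (log2 change 1.25 ± 0.56 SE, adjusted p = 0.111) did not pass. Nephritic mouse 6 was highest for all 3, at 243, 387 and 300.1 CPM. Mmp14, a membrane-bound collagenase, had a log2 change of 1.81, Sparc, a collagen-binding protein, one of 0.97 and Loxl2, a collagen cross-linker, one of 0.95, while Col5a2, named after its values were seen, was lower (-0.37). The higher count was 5 to 7 without young mouse 4 or 5 or nephritic mouse 1, 3, 4 or 6, and 19 to 21 without nephritic mouse 2, 5 or 7. It was 2 without the adrenal-marked mice, 1 in the CR and CRS libraries alone and 0 in the ZT and RX libraries alone. Among TGF-beta and growth factor genes, 5 of 22 were higher (22.7%, against 15.9% of all genes) and 3 lower (13.6%, against 10%). The higher ones included Tgfb1 (log2 change 1.18 ± 0.24 SE, adjusted p = 0.00417), Ctgf (0.90), Tgfb3 (1.15) and Pdgfb (0.97). Pdgfc (-0.51), Fgf1 (-0.80) and Smad7, an inhibitor of TGF-beta signalling (-0.33), were lower. Tgfb1 ran from 12.2 to 17.3 CPM (median 14.8) in young and 17.4 to 50.4 CPM (median 38.1) in nephritic mice, a small gap between the groups. The higher count was 9 without nephritic mouse 2, 5 or 7 and 2 without the adrenal-marked mice. The Col1a1 call was lost without any 1 of young mice 1, 4 and 5 and nephritic mice 1, 4 and 6. The Col5a2 call was lost without any 1 mouse other than young mice 1, 2 and 3 and nephritic mice 5, 6 and 7. The Pdgfb call was lost without any 1 mouse other than young mouse 6 and nephritic mice 2, 5 and 7.

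Proximal tubule transport genes showed the reverse direction. Of 37, 15 were lower (40.5%, against 10% of all genes) and 0 higher, with a median log2 change of -0.74, and their summed level ran from 24294 to 29345 CPM in young and from 8010.0 to 27251 CPM in nephritic mice. Slc4a4, which passes bicarbonate to the blood, ran from 861 to 1305 CPM (median 1002) in young and 337 to 861 CPM (median 489) in nephritic mice (log2 change -0.97 ± 0.21 SE, adjusted p = 0.00539). Slc5a12, a lactate carrier, had a log2 change of -0.85, Slc5a2 (SGLT2), the main glucose carrier of the early tubule, one of -0.91 and Slc7a7, which exports cationic amino acids, one of -0.53. Lrp2 (megalin), the receptor that takes up filtered protein, ran from 2272 to 4754 CPM (median 2735) in young and 449 to 2944 CPM (median 1122) in nephritic mice (log2 change -1.23 ± 0.42 SE, adjusted p = 0.0434). Slc34a1, the phosphate carrier, did not pass (log2 change -0.81 ± 0.39 SE, adjusted p = 0.129): nephritic mice 5 and 7 were at 5298 and 5343 CPM, within the young range of 4308 to 6013 CPM, and nephritic mice 3 and 4 at 885 and 900.0 CPM. The lower count was 7 to 9 without any 1 of young mice 1, 4, 5, 6 and 7 or nephritic mice 1, 3, 4 and 6, at most 22 with any 1 mouse left out, and 6 without the adrenal-marked mice. The CR and CRS libraries alone gave 19 lower members, and the ZT and RX libraries alone 0 lower and 1 higher. The Lrp2 call was lost without any 1 mouse other than young mouse 3 and nephritic mice 5 and 7. The Slc5a2 call was lost without any 1 mouse other than nephritic mice 5 and 7.

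Cubn, which takes up filtered protein together with megalin, Slc7a8, an exporter of neutral amino acids, and Slc7a9, a cystine carrier, were named after their values were seen, and all 3 were lower. Cubn ran from 478 to 858 CPM (median 605) in young and 164 to 578 CPM (median 249) in nephritic mice (log2 change -1.05 ± 0.30 SE, adjusted p = 0.0225), Slc7a8 had a log2 change of -0.72 and Slc7a9 one of -0.66, and the groups overlapped for each. The Cubn call was lost without nephritic mouse 1. The Slc7a8 call was lost without any 1 of young mice 4 and 6 and nephritic mouse 3. The Slc7a9 call was lost without any 1 mouse other than nephritic mice 2, 5 and 7.

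Further along the nephron fewer genes passed. Of 21 genes of the thick limb and distal convoluted tubule, 4 were lower (19%, against 10% of all genes) and 1 higher (4.76%, against 15.9%). The lower ones were Cldn10 (-0.85), a paracellular cation pore, Calb1 (-0.93), a calcium buffer, Klhl3 (-0.68), which marks WNK kinases for degradation, and Wnk1 (-0.45), one of those kinases. The higher one was Trpv5 (1.49), the calcium channel. These calls were thin, with 0 to 2 lower members left without any 1 mouse other than nephritic mice 2, 5 and 7. The Cldn10 call was lost without any 1 mouse other than young mouse 3 and nephritic mice 2, 3, 5 and 7. The Calb1 call was lost without any 1 mouse other than young mice 6 and 7 and nephritic mice 2, 5 and 7. Klhl3 and Wnk1 calls were lost without any 1 mouse other than nephritic mice 2, 5 and 7. The Trpv5 call was lost without any 1 mouse other than young mice 2 and 4 and nephritic mice 1, 2, 5 and 7. Slc12a1 (log2 change -0.69 ± 0.48 SE, adjusted p = 0.296) and Slc12a3 (log2 change -0.19 ± 0.19 SE, adjusted p = 0.46), the sodium chloride carriers that loop and thiazide diuretics block, did not pass. Of 22 collecting duct genes, 1 was higher (4.55%, against 15.9% of all genes) and 2 lower (9.09%, against 10%). In the CR and CRS libraries alone 10 were higher and 1 lower, and in the ZT and RX libraries alone 0 were higher and 0 lower. Slc4a9, a bicarbonate carrier of intercalated cells, was higher (log2 change 0.41 ± 0.11 SE, adjusted p = 0.0139), and Nr3c2, the mineralocorticoid receptor (-0.33), and Car2, a carbonic anhydrase (-0.45), were lower. Aqp2, the vasopressin-regulated water channel, ran from 347 to 669 CPM (median 479) in young and 491 to 1516 CPM (median 656) in nephritic mice and did not pass (log2 change 0.66 ± 0.25 SE, adjusted p = 0.0647). The Nr3c2 call was lost without any 1 of young mice 4, 6 and 7 and nephritic mice 4 and 6. The Car2 call was lost without any 1 of young mice 4 and 6. Across all solute carriers, 65 of 332 tested were lower (19.6%, against 10% of all genes) and 30 higher (9.04%, against 15.9%), and in the ZT and RX libraries alone 4 were lower and 9 higher. The lower ones numbered 102 without nephritic mouse 7, 34 to 42 without any 1 of young mice 4 to 7 and nephritic mice 1, 3, 4 and 6, and 23 without the adrenal-marked mice, and the higher ones 17 without nephritic mouse 4.

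Sterol and fatty acid synthesis genes were lower in 10 of 24 (41.7%, against 10% of all genes) and higher in 0. Insig1, which holds SREBP in the endoplasmic reticulum when sterol is ample, ran from 51.6 to 123 CPM (median 84.6) in young and 22.4 to 58.4 CPM (median 28.8) in nephritic mice (log2 change -1.14 ± 0.26 SE, adjusted p = 0.0076). Nsdhl had a log2 change of -0.63 and Srebf1, the main factor of lipid synthesis, one of -0.65. Without young mouse 6, 6 members were lower, and in the CR and CRS and the ZT and RX libraries alone 5 and 2. The Srebf1 call was lost without young mouse 6.

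Fatty acid oxidation and PPAR-alpha genes were near the shares of all genes, with 4 of 37 lower (10.8%, against 10%) and 4 higher (10.8%, against 15.9%) and a median log2 change of -0.28. Ppara itself, the receptor that drives the pathway, ran from 93.5 to 135 CPM (median 107) in young and 37.97 to 105 CPM (median 62.2) in nephritic mice (log2 change -0.77 ± 0.22 SE, adjusted p = 0.0232). Acsl1 (-0.91) and Acsm2 (-0.82), which activate long- and medium-chain fatty acids, and Etfdh (-0.48), which passes electrons to the respiratory chain, were lower too. Cpt1a, the gate for entry into mitochondria, did not pass (log2 change -0.26 ± 0.11 SE, adjusted p = 0.0765). The higher members were Cyp4a12a, a fatty acid omega-hydroxylase, at 1.73 to 4.17 CPM (median 3.10) in young and 10.4 to 72.2 CPM (median 17.1) in nephritic mice (log2 change 3.33 ± 0.47 SE, adjusted p = 0.000292), Angptl4 (2.13), an inhibitor of lipoprotein lipase, Fabp1 (1.68), a fatty acid binding protein, and Plin2 (0.64), which coats lipid droplets. The lower count was 1 or 2 without any 1 of young mice 1, 3, 4, 5 and 7 or nephritic mice 1, 3, 4 and 6, 9 without nephritic mouse 5, 10 without nephritic mouse 7 and 0 without the adrenal-marked mice. The Ppara call was lost without any 1 of young mice 4 and 7 and nephritic mouse 1. The Acsm2 call was lost without any 1 mouse other than nephritic mice 2, 5 and 7. The Etfdh call was lost without any 1 mouse other than young mouse 2 and nephritic mice 5 and 7.

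Gluconeogenesis genes did not pass in any of 4 (Pck1, G6pc, Fbp1 and Pcx), although all 4 had negative values, with log2 changes of -0.95, -0.62, -0.85 and -0.71. Pck1, its rate-limiting enzyme, ran from 2849.7 to 5253 CPM (median 3466) in young and 402 to 4509 CPM (median 1397) in nephritic mice (log2 change -0.95 ± 0.43 SE, adjusted p = 0.116), with nephritic mice 5 and 7 inside the young range and the others below it. Without nephritic mouse 5, 3 of the 4 were lower, and without nephritic mouse 7, 2 were. Of 25 glycolysis and pentose phosphate genes, 5 were higher (20%, against 15.9% of all genes) and 3 lower (12%, against 10%), near the shares of all genes. Hk2 (1.53), Hk3 (log2 change 1.72 ± 0.26 SE, adjusted p = 0.000489), Slc2a6 (2.76), Slc16a3 (1.65) and H6pd (0.67) were higher, which are hexokinases, a sugar carrier, a lactate exporter and a reticulum dehydrogenase. Pfkm (-0.48), Pgk1 (-0.48) and Pgam1 (-0.55), enzymes of glycolysis proper, were lower. The higher count was 8 without nephritic mouse 5. The H6pd call was lost without any 1 of young mouse 5 and nephritic mice 3, 4 and 6. The Pfkm call was lost without any 1 mouse other than young mouse 3 and nephritic mice 2, 5 and 7. Among 24 amino acid catabolism genes, 4 were lower (16.7%, against 10% of all genes) and 1 higher (4.17%, against 15.9%). Acmsd, Odc1 (-0.73), the first enzyme of polyamine synthesis, Oat (-0.57) and Qprt (-0.38), which makes NAD from quinolinate, were lower without overlap. Sat1, which breaks polyamines down, was higher (0.44). The Sat1 call was lost without any 1 mouse other than young mouse 4 and nephritic mice 2, 5 and 7. Gatm, the first enzyme of creatine synthesis, ran from 1272 to 2060.3 CPM (median 1476) in young and 158 to 1272 CPM (median 691) in nephritic mice and missed the threshold (log2 change -1.15 ± 0.41 SE, adjusted p = 0.0527) although every nephritic mouse lay below the lowest young mouse, nephritic mouse 7 only just. The lower count was 11 without nephritic mouse 5 and 10 without nephritic mouse 7. Of 99 respiratory chain subunit and assembly genes, 2 were lower (2.02%) and 0 higher, both below the 10% and 15.9% of all genes. The 2 were Cox11 (-0.40) and Cox15 (-0.45). The lower count of this list was 9 to 13 without nephritic mouse 2, 5 or 7. It was 1 without any 1 of young mice 4 to 7 and nephritic mice 1, 3, 4 and 6. The Cox15 call was lost without any 1 mouse other than young mice 1, 2 and 3 and nephritic mice 2, 5 and 7.

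The renin-angiotensin genes were lower in 4 of 7 (57.1%, against 10% of all genes) and higher in 0. Agtr1a, the type 1 angiotensin receptor, ran from 40.4 to 49.8 CPM (median 44.6) in young and 20.8 to 35.7 CPM (median 29.8) in nephritic mice (log2 change -0.56 ± 0.11 SE, adjusted p = 0.00358), and it separated the groups. Enpep, which breaks down angiotensin II, had a log2 change of -0.73 and Atp6ap2, the prorenin receptor, one of -0.29, while Ace (log2 change -0.89 ± 0.40 SE, adjusted p = 0.113) and Agt (log2 change 0.29 ± 0.20 SE, adjusted p = 0.279) did not pass. Of 15 vasoactive genes, 2 were higher (13.3%, against 15.9% of all genes) and 3 lower (20%, against 10%). Edn1, the vasoconstrictor endothelin-1, was higher at 1.61 to 3.62 CPM (median 2.32) in young and 3.63 to 45.96 CPM (median 12.4) in nephritic mice (log2 change 3.11 ± 0.57 SE, adjusted p = 0.00227), and Ece1, which processes it, was lower at 106 to 134 CPM (median 118) in young and 64.5 to 97.99 CPM (median 76.3) in nephritic mice (log2 change -0.56 ± 0.10 SE, adjusted p = 0.00192). Its receptors Ednra (0.11) and Ednrb (-0.11) did not pass. Cygb, a globin of fibroblasts and pericytes, was higher (1.53), and Adra1a (-0.77), an adrenergic receptor, and Ptgs2 (-0.94), cyclooxygenase-2, were lower. Without nephritic mouse 5, 5 vasoactive genes were lower. The Atp6ap2 call was lost without any 1 mouse other than young mouse 3 and nephritic mice 5 and 7. The Ptgs2 call was lost without any 1 mouse other than young mice 1, 2 and 7 and nephritic mice 5, 6 and 7.

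Of 18 podocyte genes, 1 was higher (5.56%, against 15.9% of all genes) and 2 lower (11.1%, against 10%). Nes, an intermediate filament protein, was higher (log2 change 0.92 ± 0.17 SE, adjusted p = 0.00216), and Clic5 (-0.43) and Col4a4 (-0.76), a collagen of the glomerular basement membrane, were lower. The slit diaphragm gene Nphs1 (nephrin) did not pass (log2 change -0.18 ± 0.36 SE, adjusted p = 0.725), with its level lowest in nephritic mouse 3 at 5.70 CPM and highest in nephritic mouse 5 at 64 CPM. Among 18 endothelial genes, 3 were higher (16.7%) and 2 lower (11.1%). The VEGF receptors Kdr (log2 change -0.96 ± 0.19 SE, adjusted p = 0.0043) and Flt1 (-0.61) were lower, and the adhesion molecules Icam1 (log2 change 1.61 ± 0.32 SE, adjusted p = 0.0041), Selp (2.36) and Sele (1.29) were higher. Pecam1, which marks the whole endothelium, ran from 45.4 to 85.5 CPM (median 66.95) in young and 40.9 to 74.98 CPM (median 59.02) in nephritic mice (log2 change -0.11 ± 0.14 SE, adjusted p = 0.561). Kdr ran from 50.7 to 88.7 CPM (median 61.6) in young and 17.8 to 50.1 CPM (median 33.6) in nephritic mice, so every nephritic mouse lay below the young range although Pecam1 overlapped. Of 8 smooth muscle and pericyte genes, 1 was higher (12.5%, against 15.9% of all genes), namely Tagln, an actin-binding protein (1.08). Of the podocyte genes, 4 were lower without nephritic mouse 5 or 7. The Clic5 call was lost without any 1 mouse other than young mice 1, 2 and 3 and nephritic mice 5 and 7. The Sele call was lost without any 1 mouse other than young mice 2 and 5 and nephritic mice 1 and 7.

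Hormone and stress lists had 16.7% to 27.8% of their members higher, against 15.9% of all genes. Among 12 glucocorticoid-responsive genes, Fkbp5, a chaperone of the receptor, was higher at 34 to 41.2 CPM (median 37.1) in young and 42.7 to 117 CPM (median 59.6) in nephritic mice (log2 change 0.98 ± 0.24 SE, adjusted p = 0.0103), as were Mt2 (1.87), a metallothionein, and Cebpd (0.79). The receptor Nr3c1 itself was lower at 99.6 to 128 CPM (median 116) in young and 62.7 to 95.4 CPM (median 83.96) in nephritic mice (log2 change -0.500 ± 0.10 SE, adjusted p = 0.00417), without overlap. Sgk1, a kinase that raises sodium transport, ran from 160.4 to 309.7 CPM (median 204) in young and 83.5 to 681 CPM (median 162) in nephritic mice (log2 change 0.20 ± 0.44 SE, adjusted p = 0.751), with nephritic mice 5 and 7 at 681 and 623 CPM. Of 18 immediate early genes, Egr2 (2.34), Egr3 (1.80), Atf3 (2.16), Klf4 (0.81) and Klf6 (1.36) were higher, while Fos (log2 change -0.48 ± 0.501 SE, adjusted p = 0.487) and Egr1 (log2 change -0.95 ± 0.46 SE, adjusted p = 0.137) did not pass. Of 14 unfolded protein response genes, Atf4 (log2 change 0.49 ± 0.09 SE, adjusted p = 0.00172), Trib3 (1.28) and Asns (1.34), the asparagine synthetase, were higher. Without young mouse 6, 7 members were. Hspa5 (BiP), the chaperone of the reticulum, did not pass (log2 change 0.29 ± 0.36 SE, adjusted p = 0.567). Of 12 heat shock and cold-inducible genes, Hspb1 (log2 change 1.83 ± 0.38 SE, adjusted p = 0.00525) and Rbm3 (0.85), which responds to cooling, were higher. Among 11 NRF2 antioxidant genes, Hmox1 (1.65), which degrades heme, Srxn1 (0.54) and Slc7a11 (1.43) were higher and Osgin1 lower (-0.54). Nqo1, often used as a readout of NRF2, did not pass (log2 change -0.25 ± 0.13 SE, adjusted p = 0.163). The Cebpd call was lost without any 1 of young mice 1, 4 and 6 and nephritic mice 3, 4 and 6. Klf6 and Hmox1 calls were lost without nephritic mouse 3. The Asns call was lost without any 1 of nephritic mice 3, 4 and 6. The Osgin1 call was lost without any 1 mouse other than young mouse 3 and nephritic mice 1, 2, 5 and 7.

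Of 79 cytochrome P450 genes tested, 14 were higher (17.7%, against 15.9% of all genes) and 1 lower (1.27%, against 10%). Cyp4a12b, near-identical in part to Cyp4a12a so that reads may be shared, ran from 0.347 to 1.45 CPM (median 0.902) in young and 2.01 to 44.2 CPM (median 4.92) in nephritic mice (log2 change 4.40 ± 0.83 SE, adjusted p = 0.00283), with nephritic mice 3, 4 and 6 at 44.2, 33.4 and 36.1 CPM. The P450 count was 24 without young mouse 7, 9 without nephritic mouse 4 and 7 without the adrenal-marked mice. Of 48 conjugating enzymes, 8 were higher (16.7%) and 6 lower (12.5%), near the 15.9% and 10% of all genes. Sult4a1, a sulfotransferase better known from brain, ran from 0 to 0.168 CPM (median 0.100) in young and 0.0643 to 19.5 CPM (median 3.88) in nephritic mice (log2 change 6.24 ± 1.34 SE, adjusted p = 0.00576), with nephritic mice 2, 5 and 7 inside the young range. Gstm4, a glutathione transferase, was lower (-0.37). The lower count was 1 to 3 without any 1 of young mice 3 to 7 or nephritic mice 1, 3, 4 and 6, and the higher count 5 without nephritic mouse 3 or 4. Of 82 cytosolic ribosomal protein genes, 14 (17.1%) were higher and 0 lower, a count taken up with the library sets below.

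Lists of neighbouring tissues were measured beside these groups. No adrenal gene passed, and in both groups all but 1 mouse were low, as given above. Of 11 adipocyte genes, Ucp1, the uncoupling protein of brown fat, passed (log2 change 1.72 ± 0.60 SE, adjusted p = 0.0473) and was 3.25 to 16.4 CPM (median 12.3) in young and 0.816 to 110.1 CPM (median 33.9) in nephritic mice, with nephritic mouse 6 the lowest of all. Of 6 urothelial genes, Upk1a (-1.38) and Upk3b (-0.94), plaque proteins of bladder and pelvis lining, were lower, with a list sum of 17.04 to 58.5 CPM in young and 7.89 to 49.6 CPM in nephritic mice. Of 7 hepatocyte genes, Apoa1 (2.64) and Serpina1b (1.43) were higher and Ttr lower (-0.98). The hepatocyte sum ran from 142 to 402 CPM in young and from 106 to 3616 CPM in nephritic mice, and the higher count was 0 without any 1 of young mice 1, 3, 4, 5 and 6 or nephritic mice 2, 4 and 6 and 5 without young mouse 7 or nephritic mouse 5. Globin genes had under 100 counts over the libraries, and Alas2, the erythroid heme enzyme, did not pass (log2 change 0.28 ± 0.73 SE, adjusted p = 0.794). The Ucp1 call was lost without any 1 mouse other than young mouse 3 and nephritic mouse 6. The Upk3b call was lost without any 1 mouse other than young mouse 4 and nephritic mice 2 and 5. The Apoa1 call was lost without any 1 mouse other than young mouse 7 and nephritic mice 1, 3, 5 and 7. The Serpina1b call was lost without any 1 mouse other than young mouse 7 and nephritic mice 3, 5 and 7. The Ttr call was lost without any 1 mouse other than young mice 1 and 3 and nephritic mice 4, 5 and 7. Whether RNA of these tissues adds to the other lists was not tested.

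Of 23 clock genes tested at ZT0, 3 were higher (13%, against 15.9% of all genes) and 4 lower (17.4%, against 10%). The list's median log2 change was -0.08. In the CR and CRS libraries alone it was -0.30, with 1 gene higher and 5 lower, and in the ZT and RX libraries alone 0.30, with 1 higher and 0 lower. Arntl ran from 30.6 to 50.7 CPM (median 37.5) in young and 18.3 to 33.03 CPM (median 29.7) in nephritic mice (log2 change -0.57 ± 0.15 SE, adjusted p = 0.015), Npas2 from 22.2 to 37.5 CPM (median 27.4) in young and 15.7 to 25.4 CPM (median 19.4) in nephritic mice (log2 change -0.48 ± 0.13 SE, adjusted p = 0.0142) and Clock from 65.5 to 104 CPM (median 78.04) in young and 51.7 to 72.6 CPM (median 58.4) in nephritic mice (log2 change -0.38 ± 0.12 SE, adjusted p = 0.0301). These 3 are the activators of the loop, and for each the groups overlapped. Dbp, an output factor that binds D-boxes, ran from 2.34 to 5.65 CPM (median 3.37) in young and 4.03 to 10.3 CPM (median 6.48) in nephritic mice (log2 change 0.97 ± 0.25 SE, adjusted p = 0.0134), and Bhlhe41 (Dec2), a repressor that competes at E-boxes, from 2.61 to 3.47 CPM (median 3.37) in young and 3.99 to 7.65 CPM (median 5.81) in nephritic mice (log2 change 0.87 ± 0.15 SE, adjusted p = 0.0012). The groups overlapped for Dbp and did not for Bhlhe41. Csnk1e, a kinase of PER proteins, was higher (log2 change 0.79 ± 0.22 SE, adjusted p = 0.0181). The repressors Per1 (log2 change 0.53 ± 0.33 SE, adjusted p = 0.246), Per2 (log2 change 0.47 ± 0.23 SE, adjusted p = 0.134), Per3 (0.21), Cry1 (0.24) and Cry2 (-0.08) did not pass, nor did Nr1d1 (REV-ERB alpha, log2 change -0.30 ± 0.42 SE, adjusted p = 0.619), Nr1d2 (0.11), Rora (-0.10), Bhlhe40 (-0.20), Ciart (0.53), Tef (-0.34), Hlf (-0.59), Nfil3 (-0.23), Csnk1d (0.09) or Usp2 (0.10). Without both adrenal-marked mice 2 were higher and 3 lower. The Clock call was lost without any 1 of young mice 4, 6 and 7 and nephritic mice 1, 2, 3 and 4.

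Of the 23 clock genes, 18 had a promoter window. The E-box CACGTG, which reads the same on both strands, stood in 5 (27.8%, against 10.9% of 12162 tested genes with a window), the D-box TTANGTAA in 1 (5.56%, against 1.97%) and the RORE, bound by ROR and REV-ERB receptors, in 1 (5.56%, against 0.247%). The windows of the called genes that held one are Arntl (chr7:113207261-113207560, plus strand) with its RORE 26 bases after the start and Bhlhe41 (chr6:145865371-145865670, minus strand) with its E-box 153 bases before it, in capitals.
Arntl: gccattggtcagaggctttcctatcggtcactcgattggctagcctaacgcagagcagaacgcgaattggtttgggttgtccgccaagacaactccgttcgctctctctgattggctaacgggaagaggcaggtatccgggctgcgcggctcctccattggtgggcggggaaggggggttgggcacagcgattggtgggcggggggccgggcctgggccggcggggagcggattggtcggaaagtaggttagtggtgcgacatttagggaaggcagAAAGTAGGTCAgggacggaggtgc
Bhlhe41: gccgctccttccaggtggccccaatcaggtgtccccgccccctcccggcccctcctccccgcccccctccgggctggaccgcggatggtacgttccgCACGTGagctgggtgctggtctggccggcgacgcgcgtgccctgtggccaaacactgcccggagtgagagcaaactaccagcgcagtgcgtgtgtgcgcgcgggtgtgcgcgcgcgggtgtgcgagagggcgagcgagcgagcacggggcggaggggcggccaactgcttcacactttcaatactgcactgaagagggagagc

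The same difference was measured at ZT12, lights off, in 7 young and 6 nephritic mice, none of them shared with ZT0. Nephritic mice 1 and 2 of ZT12 carry a further library prefix, HIL, which was placed with CR and CRS in the fits that use ZT12. The labels do not say what the prefixes mean, so this placement is an assumption. Fitted alone, ZT12 gave 3848 of 15893 genes higher (24.2%) and 3293 lower (20.7%). Of the 4089 genes past the threshold at ZT0 and tested at ZT12, 3978 had the same sign and 3103 passed there in the same direction, which is 75.9% of those 4089 and 43.5% of the 7141 genes past the threshold at ZT12. A test of the difference between the changes at the 2 hours was passed by 21 of 16684 genes (0.126%), with 1904 genes at an unadjusted p under 0.05. That count was 10 to 13 without any 1 of young mice 2, 3 and 6 and nephritic mice 3 and 4, and 52 without nephritic mouse 6.

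Clock genes led these 21. Npas2 had a change of -0.49 ± 0.17 SE at ZT0 and 2.39 ± 0.20 SE at ZT12 (difference -2.88 ± 0.27 SE, adjusted p = 1.16e-06), Arntl one of -0.59 ± 0.19 SE at ZT0 and 1.75 ± 0.21 SE at ZT12 (difference -2.34 ± 0.28 SE, adjusted p = 7.42e-05), Dbp one of 0.96 ± 0.26 SE at ZT0 and -2.02 ± 0.26 SE at ZT12 (difference 2.98 ± 0.36 SE, adjusted p = 7.42e-05) and Ciart, a repressor of the loop, one of 0.49 ± 0.29 SE at ZT0 and -1.94 ± 0.29 SE at ZT12 (difference 2.43 ± 0.40 SE, adjusted p = 0.00879). The levels behind Arntl were 30.6 to 50.7 CPM (median 37.5) in young and 18.3 to 32.98 CPM (median 29.7) in nephritic mice at ZT0, and 2.16 to 4.82 CPM (median 2.88) and 6.52 to 15.2 CPM (median 10.3) at ZT12. Young kidneys were thus higher at lights on and lower at lights off. Dbp showed the mirror image, from 2.34 to 5.65 CPM (median 3.37) in young and 4.02 to 10.2 CPM (median 6.47) in nephritic mice at ZT0 to 64.5 to 130.4 CPM (median 73.4) and 8.82 to 35.01 CPM (median 20) at ZT12. The next genes by p were Micalcl (-0.79 ± 0.15 SE at ZT0 and 0.57 ± 0.17 SE at ZT12, difference -1.36 ± 0.23 SE, adjusted p = 0.00879), Dtx4 (0.28 and 1.65), a Notch-linked ubiquitin ligase, Mmp15 (0.19 and 1.34), a membrane metalloproteinase, and Arhgef10l (-0.22 and 0.38), a guanine nucleotide exchange factor, followed by Ppm1h (-0.27 and 0.28), a phosphatase. Pnmt, the adrenaline enzyme of adrenal medulla, also passed, and its reads came from nephritic mouse 4 at ZT0 (33.96 CPM) and from young mice at ZT12 (up to 54.7 CPM). Per1 (difference 1.41 ± 0.41 SE, adjusted p = 0.157), Per3 (difference 1.09 ± 0.25 SE, adjusted p = 0.0663) and Nr1d2 (difference 0.97 ± 0.28 SE, adjusted p = 0.157) did not pass.

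**Figure D4:**
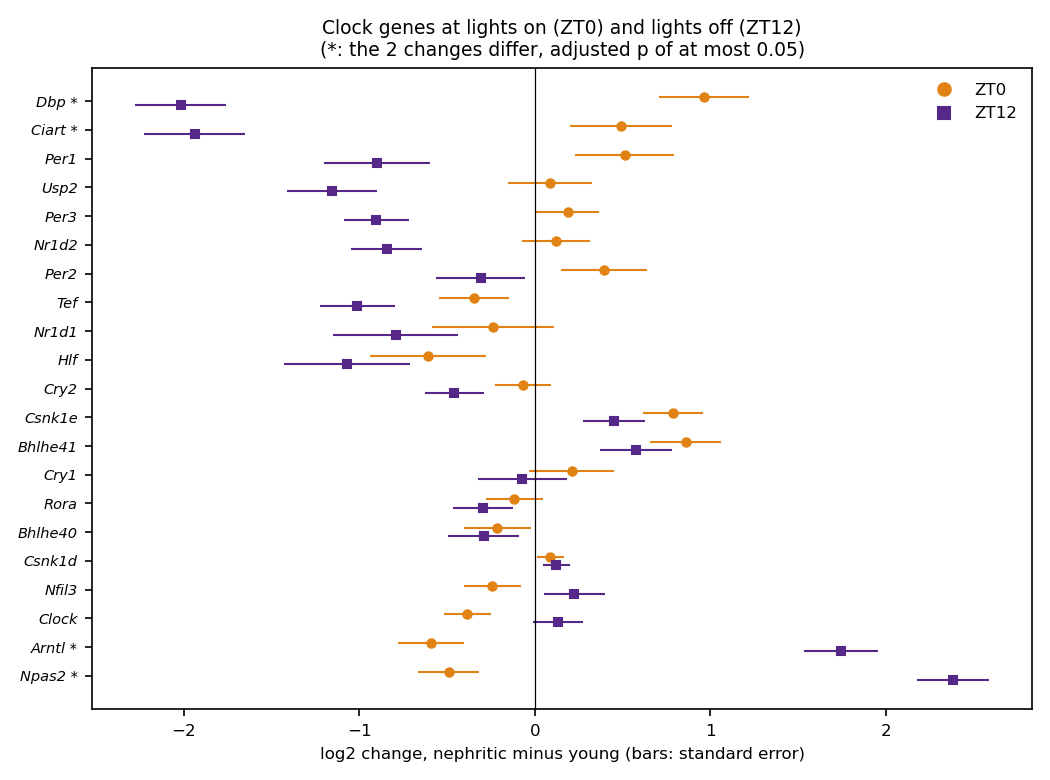
Log2 change (nephritic minus young, x axis, bars are standard errors) of 21 clock genes at ZT0 (circles) and ZT12 (squares) from 1 fit of 27 libraries, with stars where the 2 changes differ at an adjusted p of at most 0.05. Arntl and Npas2 lie below 0 at ZT0 and above it at ZT12, and Dbp and Ciart the other way round.

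Set against the mean of the other 5 time points, the change at ZT0 differed in 184 of 17521 genes (1.05%), 154 with a larger and 30 with a smaller value at ZT0, and 2198 had an unadjusted p under 0.05. Apart from ZT12, the other time points held only ZT and RX libraries, and the covariate does not remove a change that differs between sets. Time of day and set therefore cannot be fully told apart in this contrast. The 5 genes with the smallest p were Vac14 (0.23 at ZT0 and -0.06 over the rest of the day, adjusted p of the difference = 0.0135), a scaffold of the kinase that makes an endosomal phosphoinositide, Hist1h1c (-0.81 and -0.11), a linker histone, Dbp (0.95 and -0.87), Cd55 (-0.57 and 0.36) and Tbxas1, the thromboxane synthase (-1.03 and -0.17). Vac14 stood at 32.9 to 40.3 CPM (median 36.6) in young and 41.4 to 45.2 CPM (median 42.8) in nephritic mice at ZT0, a small difference that separated the groups in every mouse (log2 change 0.25 ± 0.06 SE, adjusted p = 0.00735), and Hist1h1c at 66.3 to 87.02 CPM (median 76.6) in young and 31.4 to 53.7 CPM (median 46.1) in nephritic mice (log2 change -0.79 ± 0.11 SE, adjusted p = 0.000321). Among the 154 were 5 of the 7 hepatocyte genes: Alb (1.94 and -2.88), Apoa1 (2.17 and -2.44), Serpina1b (1.25 and -1.89), Apoa2 (1.33 and -3.37) and Ahsg (1.81 and -3.22), the last 2 named after their values were seen. Chgb, a chromogranin of adrenal medulla, was also among the 154 (3.84 and -5.31, adjusted p of the difference = 0.0333). Chga of the adrenal list was not (4.60 and -4.56, adjusted p of the difference = 0.066). The hepatocyte sum at ZT0 was highest in nephritic mouse 4, at 3616 CPM. The part of liver or adrenal RNA in the 154 was not tested. The count rested on single mice. It was 5 to 29 without any 1 of young mice 1 to 6 and nephritic mice 3 and 4 (5 without nephritic mouse 4), 76 without nephritic mouse 2 and 366 without nephritic mouse 5. In the ZT and RX libraries alone it was 213.

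The nephritic change at ZT0 also differed between the library sets, in 1784 of 15889 genes (11.2%), 926 with a larger and 858 with a smaller value in the ZT and RX libraries. The larger and smaller counts were 1758 and 1290 without nephritic mouse 3 and 288 and 363 without young mouse 7. Without any 1 of young mice 1, 2, 3 and 6 or nephritic mice 1, 2 and 5 the larger count was 359 to 567. Alone, the CR and CRS libraries gave 2281 higher and 1788 lower genes and the ZT and RX libraries 614 higher and 145 lower genes, with 410 higher and 27 lower in both. In Gramd1b, a sterol carrier, the CR young mice (106, 114 and 117 CPM) and the RX nephritic mice (72.2, 84.8, 60.8 and 79.8 CPM) were high. The CRS nephritic mice (26.3, 30.5 and 31.6 CPM) and the ZT young mice (58.8, 52.7, 49.1 and 35.3 CPM) were low. Its log2 change was -1.91 in the CR and CRS libraries and 0.61 in the ZT and RX libraries (adjusted p of the difference = 0.000711). Sik1, a salt-inducible kinase, was crossed in the same way (-1.10 and 0.42), as were Slco4c1, an organic anion carrier (-3.53 and 2.61), and Arg2, the mitochondrial arginase (-1.67 and 1.496). Nenf, a secreted heme-binding protein, was crossed the other way (0.93 and -0.28). None of these 5 passed over both sets together.

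**Figure D5:**
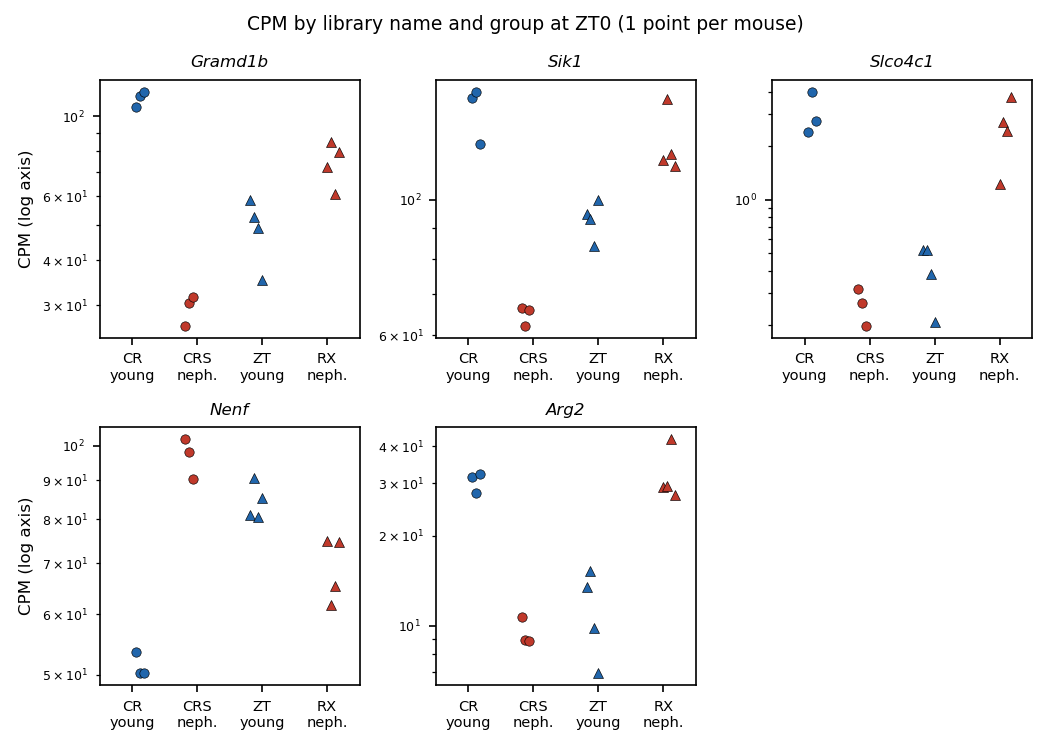
CPM (log axis) of 5 genes at ZT0 by library prefix (CR young and CRS nephritic, ZT young and RX nephritic), where points are mice. Gramd1b, Sik1, Slco4c1 and Arg2 are high in CR and RX and low in CRS and ZT libraries, and Nenf is high in CRS and ZT and low in CR and RX libraries.

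Ribosomal protein genes also differed between the sets as a list, but without 2 changes of opposite sign. Their median log2 change was 0.68 in the CR and CRS libraries and -0.04, near 0, in the ZT and RX libraries. Of 82, 66 were higher in the CR and CRS libraries alone and 0 in the ZT and RX libraries alone, and the changes differed between the sets in 58 (70.7%, against 11.2% of all genes). Rpl32 ran from 205 to 265 CPM (median 253) in young and 240.0 to 369 CPM (median 312) in nephritic mice (log2 change 0.37 ± 0.11 SE, adjusted p = 0.0314), with log2 changes of 0.76 and 0.08 in the sets. The pooled count of 14 was 1 or 2 without any 1 of young mice 5, 6 and 7 or nephritic mice 1, 3 and 4, 6 to 9 without any 1 of young mice 1 and 2 and nephritic mice 2 and 6, and 33 without nephritic mouse 5. The Rpl32 call was lost without any 1 of young mice 5, 6 and 7 and nephritic mice 1, 3 and 4. The sets also differed in 7 of 14 unfolded protein response genes, among them Hspa5 (-0.79 and 1.10, adjusted p of the difference = 0.0331), and in 7 of 22 collecting duct genes, among them Aqp2 (1.46 and 0.08, 0.0249). By contrast 1 of 31 interferon-stimulated genes, 0 of 23 complement genes and 0 of 26 injury genes differed between the sets. A covariate that joins CR with RX and ZT with CRS libraries, chosen after the data were seen, gave 3262 higher and 2535 lower genes, which held 2510 and 1573 of those above. What the prefixes stand for is not given in the sources used here. What the crossing comes from, and whether each library carries the right set or time label, was not tested. Arntl stood at 18.3 CPM or above in all 14 libraries of ZT0 and at 15.2 CPM or below in all 13 of ZT12.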

How the data were processed

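RNA of whole kidneys was sequenced on an Illumina instrument (150 bp reads), 1 library per mouse. The authors deposited raw read counts per gene symbol, made from uniquely mapped reads with up to 2 mismatches; their methods name BWA, and the submitters' processing notes name HISAT and the mm10 build, so the aligner behind the counts is not settled here. Each file lists 24538 symbols, of which 15 are empty. Whether counting used strand is not given in the sources used here.

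Groups, times and library prefixes came from the labels. Counts were tested with edgeR 4.0.16 in R 4.3.3 (TMM factors, quasi-likelihood F test, two-sided, Benjamini-Hochberg adjustment over all genes tested, threshold 0.05) for genes with at least 100 counts over the libraries of a fit, with library set as a covariate. Standard errors are the log2 change divided by the root of F. The difference between hours was tested as a diagnosis by time term over ZT0 and ZT12, the rest of the day as a contrast over 6 time points, and the sets as a diagnosis by set term. DESeq2 1.42.0 and limma 3.58.1 were alternatives. On simulated counts, 175 of 200 genes changed by 1 on the log2 scale were recovered at ZT0 with 17 false calls, and 140 of 200 with 9 false calls for the difference between ZT0 and ZT12. The changed genes were drawn only from genes well above the 100-count minimum, so recovery among genes with few reads was not measured. Both groups were given the same spread, although nephritic mice varied more. Libraries totalled 27338806 to 36567793 counts. No 2 mice agreed within sampling noise (chi-square per degree of freedom at least 8.587). A mouse and its own repeat library did not either, at 19.17 for nephritic mouse 6 and 20.78 for young mouse 3. These values lie above those of some pairs of different mice, so the measure cannot tell 1 mouse from 2.

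Named genes were the 12 highest and 12 lowest changes without overlap and with at least 1 CPM in the higher group, the first 3 and the 4 smallest p of each of 45 lists, every clock gene, the 10, 5 and 5 smallest p of the other tests and genes the study names; 27 more were added after values were seen, all said so here: Prom1, Itgb6, Col5a2, Bst2, Igtp, Oas1a, Cubn, Slc7a8, Slc7a9, Sele, Wnk1, Ptgs2, Pigr, Fcrls, Smad7, Fgf1, Tgfb3, Etfdh, Acsm2, Plin2, Pfkm, Pgk1, Pgam1, Sat1, Egr2, Apoa2 and Ahsg. The comparison, the lists and the tests were chosen with earlier results of these data known. Promoters are RefSeq windows (GRCm38.p6), available for 12162 of 15889 genes tested. Remission libraries and repeats were left out. Some members of the lists are counted in them but not reported by name here.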

Additional observations from a re-analysis of the deposited data

Results flagged for a closer look

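A mouse was marked where its gap to the nearest mouse of its group passed Dixon's 95% critical value for 7 samples, in 63 of 590 groups tested (summed lists and named genes); chance alone marks about 1 in 20 groups, and genes of one list share reads of the same mice. All values here are CPM, with no explanation weighed.

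Young mouse 4 was low for the summed interferon-stimulated genes (341.5), cytokines (40.22) and Toll-like receptors and nucleic acid sensors (108.3), and for Col3a1 (18.19) and Csnk1e (14.32). It was high for the summed gluconeogenesis (8427), glycolysis and pentose phosphate (15930), amino acid catabolism (10350) and glucocorticoid-responsive genes (2225). It was also high for the tubule genes Acsm2 (2738), Gatm (2060), Pck1 (5253), Slc12a3 (1790), Calb1 (1004), Trpv5 (30.71), Wnk1 (900.4), Car2 (687.9) and Slc4a9 (134.7), and for Fcgr2b (44.13), Osgin1 (94.59) and Srxn1 (60.3).

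Young mouse 2 was high for the summed B cell and plasma cell genes (28.8), Jchain (15.98), Cd79a (1.525) and Pou2af1 (0.5891), all still below every nephritic mouse, and for the summed neutrophil genes (7.104), S100a8 (1.941) and S100a9 (2.183). Young mouse 7 was high for the summed proliferation genes (236.8), Top2a (6.716), Alb (190.8), Apoa1 (14.79), Apoa2 (14.74), Ahsg (14.21), Angptl4 (51.91), Ctgf (80.65), Fcrls (6.716), Ccl20 (0.1737), Fcrl5 (0.08685), Micalcl (5.5) and Nr1d2 (49.5). Young mouse 1 was high for the summed adrenal genes (448.5) and Pnmt (0.711). Young mouse 6 stood out for Klf4 (14.04) and Pdgfb (39.01) and young mouse 3 for Cox11 (23.58).

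Nephritic mouse 4 was high for the summed adrenal (1575) and hepatocyte genes (3616), Alb (3121), Apoa2 (63.12), Pnmt (33.96) and Fabp1 (37.95). Nephritic mouse 2 was high for Alas2, the tested member of the red blood cell list (11.01), Cry2 (32.87) and S100a8 (0.8243). Nephritic mouse 1 was high for Isg15 (18.87), Cd8b1 (3.078) and Arhgef10l (103.7). Nephritic mouse 6 was high for Egr2 (18.13) and Ednra (6.307), and nephritic mouse 5 was high for Sele (1.799) and low for Tlr7 (2.281).

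The nephritic change differed between the library sets in 1784 genes, by edgeR's quasi-likelihood test of the interaction at an adjusted p of at most 0.05. As the change in the ZT and RX libraries minus that in the CR and CRS libraries on the log2 scale, the difference was 2.53 for Gramd1b, 1.52 for Sik1, 6.15 for Slco4c1, 3.18 for Arg2, 1.89 for Hspa5, 1.14 for Ctgf and 1.36 for Maats1. Among clock genes it was 0.605 for Clock, 1.23 for Per2 and 1.18 for Bhlhe40. It was negative for Nenf (-1.2), Alas2 (-3.48), Aqp2 (-1.36), Ltb (-1.76), Rpl32 (-0.671) and Tbxas1 (-0.918).

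The change at ZT0 minus that at ZT12 differed in 21 genes and was -2.88 for Npas2, -2.34 for Arntl, 2.98 for Dbp, 2.43 for Ciart, -1.36 for Micalcl, -0.607 for Arhgef10l, -1.36 for Dtx4, -1.15 for Mmp15 and -0.552 for Ppm1h on the log2 scale. For Pnmt it was 15.9, which rests on groups with few or no reads and is no measure of size. Against the rest of the day the change at ZT0 differed in 184 genes, by 0.298 for Vac14, -0.698 for Hist1h1c, 1.82 for Dbp, -0.926 for Cd55 and -0.856 for Tbxas1.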

How the results depend on the processing

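With RLE factors, DESeq2, limma, either filter on low counts, no set covariate, repeat libraries or the CR and CRS libraries alone, the ZT0 counts stayed within 1.5 times 2527 higher and 1592 lower genes. DESeq2, limma and RLE together shared 2151 higher and 1546 lower genes with edgeR. The ZT and RX libraries alone gave 614 and 145. The fit of all 6 time points gave 3515 and 3401. Among alternatives chosen after seeing the data, the crossed covariate gave 2535 and separate means per set and diagnosis 2496 lower genes, and leaving out both adrenal-marked mice gave 1386 higher and 637 lower. At an adjusted p of at most 0.01, 1147 genes were higher and 345 lower, and with a 2-fold minimum 1383 and 104. With 1 mouse left out, the lower genes ranged from 902 to 2278. Of 194 named genes past the threshold, 149 passed with every mouse left out in turn.

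The count that differed between ZT0 and ZT12 was 176 by DESeq2, 6 in the ZT and RX libraries alone, 393 with separate means per set, diagnosis and time, and 10 to 52 with 1 mouse left out. Against the rest of the day it was 363 by DESeq2, 15 by limma and 5 to 366 with 1 mouse left out. Between the sets, DESeq2 gave 1423 larger and 1383 smaller changes, and 1 mouse left out gave 288 to 1758 and 363 to 1290. In the CR and CRS libraries alone, Arg2 (log2 change -1.67) and Slco4c1 (-3.53) had the opposite sign to the pooled value. The cause of these shifts was not tested.

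No paired analysis was possible because replicate numbers were given in accession order and name no shared animal or litter. Age and nephritis cannot be told apart, nor can time of collection, run or handling behind the 4 library prefixes of ZT0 and the HIL prefix at ZT12. No label says that mice were litter mates or housed apart. Depth of at least 27338806 counts per library leaves genes under about 1 CPM with few reads. The p-values set a mean difference against a modelled spread between single mice, which the fit takes as the same in both groups.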
